A study of Mus musculus with 11 samples.

Results

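The variable segments of the T cell receptor alpha and beta chains, named Trav and Trbv, were taken by symbol from both deposited data types: every symbol beginning with Trav or Trbv. The bulk RNA-seq table held 98 of them among 29224 genes, 75 Trav and 23 Trbv, and the single-cell matrix listed 163 among 31053 features, 128 Trav and 35 Trbv. All 98 symbols of the bulk table were also in the single-cell matrix. The choice used names only and no measured value.

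The series compares T cells of draining lymph nodes from C57BL/6 mice and is about follicular helper T (Tfh) cells that make Sostdc1, a secreted inhibitor of BMP and Wnt signals, and about follicular regulatory T (Tfr) cells with and without that gene. It holds 11 samples in 8 groups, of which 3 samples were used. One bulk library was labelled as Tfr cells of Sostdc1-knockout (KO) mice, with a genotype given as homozygous, and 1 as Tfr cells of wild-type (WT) mice; both were sorted as CXCR5+PD1+ cells with high GITR. The third, made with a droplet kit, profiled single CD44+CD4+ T cells from mice heterozygous for a Sostdc1-EGFP reporter. Not analysed here were the other 8 samples, RNA libraries of Tfh and non-Tfh cells and Tfr ATAC libraries. The labels give neither age, treatment nor the number of mice behind a library, nor which part of Sostdc1 is deleted. Each group had 1 library, so no difference below has a replicate check, and no test of conditions was made. All intervals are exact 95% ones for counting error alone.

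Each T cell builds its alpha chain by joining 1 Trav segment to a joining (Traj) segment, and its beta chain by joining a Trbv segment to a diversity (Trbd) and a joining (Trbj) segment. The chosen variable segment encodes the receptor loops that mostly face the MHC molecule, while the junction encodes the loop that mostly faces the peptide. Expression of a beta chain from a single allele is enforced strictly, and of an alpha chain less so. Regulatory T (Treg) cells, the Foxp3-expressing lineage to which Tfr cells belong, and conventional CD4 T cells carry receptor repertoires that overlap only in part. In the Trav locus of C57BL/6 mice a central block of segments is repeated, and symbols with d or n name near-identical copies in that block, so that short reads may be assigned to the wrong copy or left out. Symbols that end in dv can also be joined to the delta chain. RefSeq (assembly GRCm38.p6) held all 163 symbols.

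The libraries must be read with a limit on their labels. Sostdc1 itself had 458 counts under the KO label and only 4 under the WT label, 16.5 against 0.221 CPM, the counts scaled to a common library total, which goes against those labels. Xist, expressed from the inactive X chromosome, had 34234 against 39 counts and the Y-linked gene Ddx3y 6 against 3557. Sex and the label can therefore not be told apart. Below, "library labelled KO" and "library labelled WT" name the libraries, with totals of 27777625 and 18076300 counts. Both held the RNA of Treg cells: Foxp3 stood at 1164 and 1471 CPM, Il2ra, the high-affinity interleukin 2 receptor chain, at 4002 and 2637 CPM, and Cd4 at 531 and 409 CPM, each with the KO label first. The follicular markers Cxcr5 (62.8 and 55.7 CPM) and Pdcd1 (229 and 164 CPM) were present in both, while Il21, a Tfh cytokine, stood at 82.8 against 4.09 CPM. Whether that Il21 came from Tfh cells in the sorted samples was not tested. Of the CD8 coreceptor genes, Cd8a stood at 0.360 and 0.774 CPM and Cd8b1 at 12.3 and 9.63 CPM.

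Receptor RNA in all was more abundant in the library labelled KO. Trbv segments had 6518 counts there and 2389 in the library labelled WT, or 235 against 132 CPM, a ratio of 1.78 (1.69 to 1.86). Trav segments had 5390 and 2383 counts, or 194 against 132 CPM, a ratio of 1.47 (1.40 to 1.55). The constant genes, which encode the part of each chain next to the membrane, stood higher as well, with ratios of 1.36 (1.32 to 1.39) for Trac, 1.61 (1.53 to 1.69) for Trbc1 and 1.84 (1.77 to 1.90) for Trbc2. The genes of the CD3 complex, which carries the signal of the receptor into the cell, lay in the same range, from 1.47 for Cd3e to 1.67 for Cd247. Variable segments per 100 counts of their constant genes were close in the 2 libraries, at 30.1 and 27.8 for Trav over Trac and at 37.2 and 36.7 for Trbv over both Trbc genes. Of the 11 constant and CD3 genes fixed as a list, 7 had at least 5 CPM in at least 1 library and 0 of these were 2-fold apart, against 13.3% of all genes with at least 5 CPM. Counts of joining segments went in both directions: the 14 Trbj segments had 42.2 against 28.5 CPM and the 54 Traj segments 66.3 against 73.9 CPM.

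Of the 98 members, 28 had at least 5 CPM in at least 1 library. On the CPM scale 5 of these 28 were at least 2-fold higher in the library labelled KO and 0 were that far below it, with a median ratio of 1.66. Over all genes with at least 5 CPM the shares were 3.03% higher and 10.2% lower, and the median ratio was 0.973. Because all members of a chain move with its total, usage is given below as the share of a segment in the counts of its chain. Shares are of counts and not per length. RefSeq spans ran from 389 to 705 bases in Trbv and from 425 to 1739 in Trav, and dividing by span left the leading segment of each chain in place in both libraries, Trbv13-2 and Trav7-4.

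Trbv usage was nearly the same in the 2 bulk Tfr libraries. Of the 23 segments, 18 held at least 1% of the chain in at least 1 library, and 0 of these 18 differed by 2-fold in share. Of all genes with at least 5 CPM, 13.3% were 2-fold apart either way, but in CPM and not in share. Shares correlated with Pearson's r of 0.95 and Spearman's rho of 0.94 over the 23 segments, as a description of segments counted within the same 2 libraries. The dissimilarity, that is the summed difference in shares divided so that 100% means no overlap, was 7.55%.

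Trbv13-2 led in both libraries, with 731 counts or 11.2% (10.5 to 12.0) in the library labelled KO, against 270 counts or 11.3% (10.1 to 12.6) in the library labelled WT. Trbv1 followed in the library labelled KO with 713 counts, 10.9% (10.2 to 11.7), against 218 counts, 9.13% (8.0 to 10.4). Trbv3 was second in the library labelled WT with 253 counts, 10.6% (9.38 to 11.9), against 610 counts, 9.36% (8.66 to 10.1). Within the library labelled WT the intervals of these 3 segments overlapped, so their order was not resolved there; within the library labelled KO only Trbv3 lay below the others, with an interval apart from both. The 5 leading segments held 47.1% and 46.2% of the chain, and the 10 leading ones 75.7% and 75.1%, with the KO label first.

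Trbv13-1 and Trbv2 were the segments of at least 1% that differed most. Trbv13-1, a close relative of Trbv13-2 in the same subfamily, had 545 counts or 8.36% (7.70 to 9.06) in the library labelled KO, against 116 counts or 4.86% (4.03 to 5.80) in the library labelled WT, a ratio of 1.72 (1.41 to 2.12). Trbv2 had 350 counts or 5.37% (4.83 to 5.95) against 199 counts or 8.33% (7.25 to 9.51), a share 1.55-fold higher in the library labelled WT (1.30 to 1.85). For both, the intervals of the 2 libraries were apart, and for the other 21 Trbv segments they overlapped. The interval of the ratio, KO label over WT label, also left out 1 for Trbv1 (1.20, 1.03 to 1.40) and Trbv29 (0.765, 0.602 to 0.979). With 1 library on each side, a difference between the groups and one between mice cannot be told apart.

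The middle of the Trbv order was occupied by segments at matching levels. Trbv16 stood at 7.26% and 6.61%, Trbv19 at 6.64% and 6.86%, Trbv15 at 5.89% and 6.03%, Trbv26 at 5.37% and 5.27%, Trbv31 at 5.28% and 5.40% and Trbv20 at 4.80% and 5.53%, each with the KO label first. The 2 intervals overlapped for all 6 of them. Trbv12-2 (4.63% and 4.02%), Trbv13-3 (4.36% and 4.98%), Trbv29 (3.27% and 4.27%) and Trbv14 (2.35% and 2.64%) came next. Trbv29 is listed as a pseudogene segment in RefSeq, but its 213 and 102 counts show RNA assigned to it in both libraries. Trbv17, Trbv12-1 and Trbv23 held between 0.879% and 1.69%. The last 5, Trbv30, Trbv5, Trbv24, Trbv4 and Trbv21, held under 1% each, and Trbv4 and Trbv21 had the fewest, with 5 and 0 and with 4 and 1 counts.

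**Figure D1:**
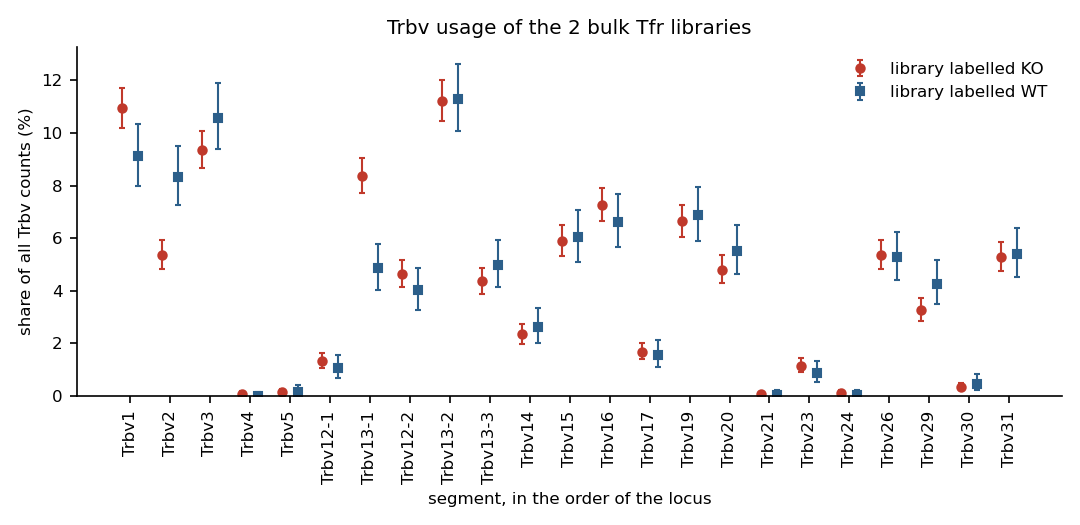
Share of each of the 23 Trbv segments in all Trbv counts (y axis, %) of the bulk Tfr libraries labelled KO (red circles) and WT (blue squares), with the segments in locus order on the x axis. Bars are exact 95% intervals; Trbv13-2, Trbv1 and Trbv3 stand highest, and the intervals of Trbv13-1 and Trbv2 are the ones that do not overlap.

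Trav usage was spread over more segments and differed more between the libraries. The effective number of segments, the number of equally used segments that would give the same Shannon entropy, was 47.9 (labelled KO) and 48.3 (labelled WT), against 16.0 and 15.9 in Trbv. The dissimilarity was 16.1%, and shares correlated with Pearson's r of 0.90 and Spearman's rho of 0.87 over 75 segments. The counts behind a Trav segment were lower, since similar totals were spread over more symbols.

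Trav7-4 led in both libraries, with 333 counts or 6.18% (5.55 to 6.85) in the library labelled KO, against 163 counts or 6.84% (5.86 to 7.93) in the library labelled WT. With its copies Trav7d-4 and Trav7n-4 summed, the group held 8.96% and 10.7%. Trav4-4-dv10 had 5.42% (4.83 to 6.06) and 4.24% (3.47 to 5.13), Trav3-3 4.55% (4.0 to 5.14) and 5.25% (4.39 to 6.22), and Trav4-3 3.84% (3.34 to 4.39) and 5.12% (4.27 to 6.08). These 4 were the Trav segments with at least 5% in at least 1 library, and the intervals of the 2 libraries overlapped for each. The interval of the ratio, KO label over WT label, left out 1 for Trav4-4-dv10 (1.28, 1.02 to 1.62) and Trav4-3 (0.750, 0.597 to 0.946). By subfamily, Trav7 was the most used with 15.2% and 18.8%, followed by Trav14 with 11.5% and 9.86%, Trav9 with 10.9% and 10.4% and Trav4 with 10.4% and 9.78%.

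Of 41 Trav segments with at least 1% of the chain in either library, 3 had a share at least 2-fold higher in the library labelled KO. Another 3 had a share at least 2-fold higher in the library labelled WT. Of all genes with at least 5 CPM, 3.03% were that far higher and 10.2% that far lower in CPM in the library labelled KO. The 6 segments all lay below 5 CPM, so these backgrounds are not matched in abundance or measure. A segment could also enter through only the library where its share was high, which favours 2-fold gaps. Trav8d-1 had 116 against 11 counts, 2.15% (1.78 to 2.58) against 0.462% (0.231 to 0.824), 4.66-fold higher (2.51 to 9.60). Trav4-2 had 63 against 9 counts, 3.09-fold higher (1.53 to 7.08), and Trav6-7-dv9 65 against 13 counts, 2.21-fold higher (1.21 to 4.37). In the other direction Trav1 had 33 against 38 counts, a share 2.60-fold higher in the library labelled WT (1.59 to 4.29). Trav8d-2 had 27 against 27 counts, 2.26-fold higher in the library labelled WT (1.28 to 4.01), and Trav8-2 had 40 against 38, 2.15-fold higher (1.34 to 3.44). Just short of the size, Trav7-1 was 1.94-fold and Trav7-5 1.89-fold higher in the library labelled WT, and Trav6-5 was 1.79-fold higher in the library labelled KO. All 6 segments past the size held at most 2.15% of the chain.

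These 6 counts must be read with the repeated block in mind, since Trav8d-1, Trav8d-2 and Trav8-2 have near-identical copies. Trav8d-1 summed with Trav8-1 held 4.86% (4.30 to 5.47) in the library labelled KO, against 3.86% (3.12 to 4.71) in the library labelled WT, a ratio of 1.26 (0.989 to 1.61). Trav8-2, Trav8d-2 and Trav8n-2 summed held 2.12% and 3.52%, a ratio of 0.600 (0.449 to 0.805). With copies summed throughout, 3 groups instead of 6 segments were 2-fold apart, and by subfamily 1 was, Trav1. Trav4-2 and Trav6-7-dv9 also have copies, but the bulk table held only 1 of 2 and 1 of 3 symbols of their groups. Summing could therefore not change these, and it is no check of how their reads were assigned. Symbols with d held 10.8% and 11.2% of the chain, symbols with n 12.4% and 11.7%, and all others 76.8% and 77.1%, so the balance between the copies was close in the 2 libraries. By RefSeq order, the last part of the Trav locus, nearest the constant gene, held 68.7% and 67.8% of the counts. It held 42 of the 128 symbols in all and 33 of the 75 in the bulk table, against 21 of these in each of the other 2 parts.

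**Figure D2:**
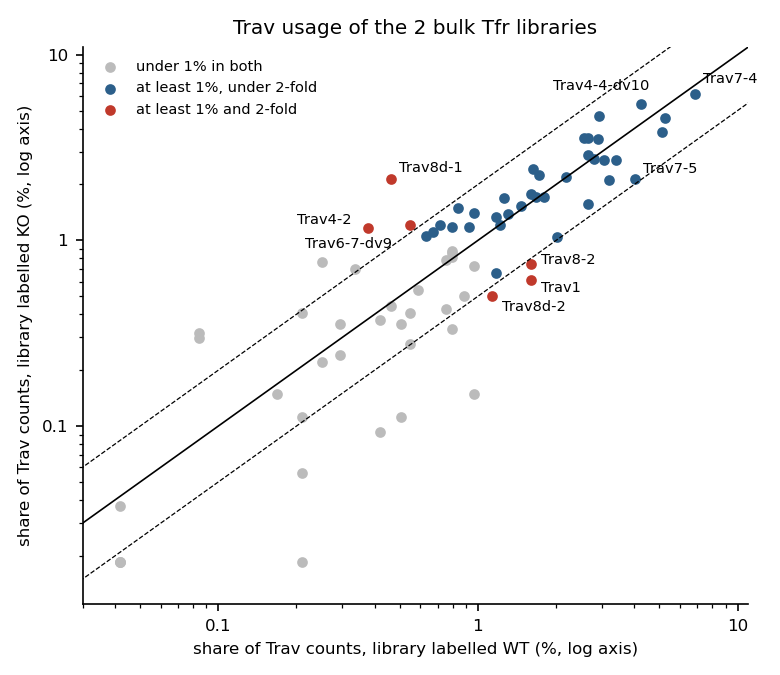
Share of each Trav segment with counts in both libraries in all Trav counts of the library labelled WT (x axis, %, log scale) and of the library labelled KO (y axis, %, log scale). The solid line marks equal shares and the dashed lines 2-fold; the 6 red points, 3 on either side, hold at least 1% in a library and lie past 2-fold, and Trav7-4 is the point farthest to the upper right.

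The segments of invariant receptors had low counts, though Trav1 held 1.59% of the chain in the library labelled WT, against 0.612% in the library labelled KO. Trav11 and Trav11d, joined to Traj18 in invariant NKT cells, were not among the 75 Trav symbols of the bulk table, and Trav11n had 12 and 6 counts with Traj18 at 57 and 33. Trav1 and Traj33, which form the receptor of mucosal-associated invariant T cells, had 33 and 38 counts and 16 and 13 counts. Zbtb16, the transcription factor of both lineages, had 21 and 27 counts. In the single cells Trav11 had 1 UMI, Trav11d 0 and Trav11n 3 in the Foxp3 gate described next, and Trav11n had 4 in other T cells. The recombinase gene Rag1 had 10 and 1 counts, and Dntt, which adds bases at the junctions, 5 and 1. NK cell genes summed to 14.1 and 5.14 CPM, of which Klrk1 gave 7.13 and 0.885, and their part in the variable segment counts was not tested.

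In the single-cell library, T cells were divided by transcripts alone into 3 gates. The Foxp3 gate held 2236 cells with at least 1 Foxp3 UMI, the Tfh gate 785 cells with Cxcr5 and Pdcd1 UMIs and no Foxp3, and the remaining T cells numbered 7624. A UMI (unique molecular identifier) count is a count of captured RNA molecules. Of the markers that the gates did not use, Il2ra stood at 221, 8.77 and 30.3 CPM in the Foxp3 gate, the Tfh gate and other T cells, Bcl6, the lineage factor of Tfh cells, at 5.63, 63.6 and 10.7 CPM, and Il21 at 3.40, 76.1 and 8.91 CPM. Of the other Treg markers, Ikzf2 stood at 757, 219 and 125 CPM in the same order. Ctla4 stood at 385, 86.8 and 63.5 CPM and Tnfrsf18 at 503, 138 and 145 CPM. Ikzf2 and Ctla4 were thus higher in the Tfh gate than in other T cells, unlike Il2ra. Icos, a costimulatory receptor listed with the Tfh markers, was highest in the Foxp3 gate, at 609, 350 and 210 CPM. Cd8b1 stood at 32.2 CPM in other T cells, against 18.2 and 9.85 CPM in the Foxp3 and Tfh gates. By cells the order differed, with Cd8b1 seen in 7.61% of other T cells, against 10.96% and 7.52%. Cd8a was seen in 1.85% of other T cells and 0.537% of the Foxp3 gate, and had 0 UMIs in the Tfh gate. Whether the other T cells included cytotoxic ones was not tested. Trdc, the delta constant gene, stood at 4.51, 16.9 and 10.2 CPM in the Foxp3 gate, the Tfh gate and other T cells, while Tcrg-C1, a gamma constant gene, stood at 1.62, 0.945 and 4.65 CPM. All gates came from 1 library, so that differences between them have no replicate.

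Few cells showed their variable segment, since this kit reads transcripts near the 3′ end while the variable segment lies near the 5′ end. A Trbv UMI was seen in 377 Foxp3-gate cells, 16.9% (15.3 to 18.5), in 203 Tfh-gate cells, 25.9% (22.8 to 29.1), and in 1343 other T cells, 17.6% (16.8 to 18.5). A Trav UMI was seen in 442 (19.8%), 223 (28.4%) and 1532 cells (20.1%). Median depths were 6166.5, 7441 and 5812 UMIs per cell in the same order. Relative to the constant genes the Tfh gate was not highest. Trav UMIs were 4.66%, 4.07% and 6.47% of Trac UMIs, and Trbv UMIs 0.834%, 0.878% and 1.03% of those of both Trbc genes. Thinning to 3000 UMIs per cell left out 150, 17 and 595 shallower cells. Of the 2086, 768 and 7029 cells that remained, Trbv was seen in 7.77%, 12.0% and 9.38% and Trav in 9.68%, 13.4% and 12.0%. The Tfh gate stayed highest, but its intervals overlapped those of other T cells. They were 9.77 to 14.49 against 8.704 to 10.08 for Trbv and 11.08 to 16.03 against 11.24 to 12.78 for Trav. The Foxp3 gate, close to other T cells before thinning, lay below them, with intervals apart for Trav only. B-like cells, which should lack these transcripts, gave 0 of 477 cells with a Trbv UMI, which allows a share of up to 0.629%, and 1 of 477 with a Trav UMI, 0.210%, at a median depth of 4693 UMIs. The detections in T cells were thus far above those in B-like cells. These B-like cells were chosen to have no UMI of Cd3d, Cd3e or Cd3g, so their level may understate the background. Of the constant genes, Trbc2 was still seen in 32.5% of B-like cells and Trac in 16.98%. Of the listed symbols, 79 of 128 Trav and 25 of 35 Trbv had a UMI in any T cell, and 49 and 10 had none. Of those detected, 10 Trav and 2 Trbv, Trbv7 and Trbv22, were not in the bulk table.

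A T cell that shows 2 or more Trbv segments is unusual for a single cell, given the strict use of 1 beta allele. Such cells were 11 of 377 in the Foxp3 gate, 2.92% (1.47 to 5.16), 19 of 203 in the Tfh gate, 9.36% (5.73 to 14.2), and 65 of 1343 among other T cells, 4.84% (3.75 to 6.13). The share was highest in the gate with the highest depth. For Trav the shares were 8.37%, 9.87% and 8.29%. The part that remaining doublets had in the gates' usage was not tested, but without these cells the share of each of the 15 segments with at least 5% of its chain in a gate stayed within its interval.

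Trbv2 was the leading beta segment in every gate. It had 139 UMIs or 30.3% (26.1 to 34.7) of the chain in the Foxp3 gate, 58 UMIs or 20.8% (16.2 to 26.0) in the Tfh gate and 364 UMIs or 22.4% (20.4 to 24.6) in other T cells. The Foxp3 gate was 1.35-fold above other T cells (1.10 to 1.65) and 1.46-fold above the Tfh gate (1.06 to 2.01). Counted by cells, in which each segment counts once per cell, the share was 24.2%, 15.3% and 19.1%, and the interval of the ratio to other T cells then included 1 (1.27, 0.992 to 1.61). Trbv19 held 8.71%, 12.9% and 9.37%, with intervals that overlapped among the gates.

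Trbv26 and Trbv3 separated the Tfh gate from the Foxp3 gate in opposite directions. Trbv26 had 21 UMIs or 4.58% (2.85 to 6.91) in the Foxp3 gate, 37 UMIs or 13.3% (9.51 to 17.8) in the Tfh gate and 108 UMIs or 6.66% (5.49 to 7.98) in other T cells. Its share in the Tfh gate was 2.90-fold that of the Foxp3 gate (1.65 to 5.21) and 1.99-fold that of other T cells (1.33 to 2.92). The ratio by cells was close, 2.98 (1.58 to 5.78) against the Foxp3 gate, from 29 against 17 cells. Trbv3 had 40 UMIs or 8.71% (6.30 to 11.7) in the Foxp3 gate, 7 UMIs or 2.51% (1.01 to 5.10) in the Tfh gate and 74 UMIs or 4.56% (3.60 to 5.69) in other T cells. The Foxp3 gate was 3.47-fold above the Tfh gate (1.54 to 9.19) and 1.91-fold above other T cells (1.27 to 2.84).

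Among Trbv segments with at least 5% of the chain in either of 2 gates, Trbv26 and Trbv3 were the only ones of 8 past 2-fold between the Foxp3 and Tfh gates, where 8.93% of all genes with at least 5 CPM in either gate were 2-fold apart in CPM. Trbv2 apart, these segments lay below 5 CPM in each gate, so the backgrounds given here are not matched in abundance. A segment could also enter through only the gate where its share was high, which favours 2-fold gaps. Between the Foxp3 gate and other T cells 0 of 9 were past 2-fold, against 7.52% of all genes, and between the Tfh gate and other T cells 0 of 8, against 7.22%. With the minimum of 1% used in bulk, 3 of 19 were past 2-fold towards the Foxp3 gate and 4 towards the Tfh gate. Against other T cells, 1 of 19 was higher and 1 lower in the Foxp3 gate, and 3 of 18 higher and 1 lower in the Tfh gate. The higher ones included Trbv29 in the Foxp3 gate (2.94-fold, 1.14 to 7.44, 10 UMIs there). In the Tfh gate they included Trbv14 (3.20-fold, 1.38 to 7.0, 11 UMIs) and Trbv23 (3.23-fold, 1.33 to 7.38, 10 UMIs). Trbv1 (6.54%, 5.02% and 8.45%), Trbv12-2 (6.32%, 5.73% and 7.52%), Trbv13-2 (6.54%, 4.66% and 5.80%), Trbv20 (4.58%, 4.66% and 7.09%) and Trbv13-1 (3.05%, 5.38% and 5.49%) completed the segments of at least 5% in a gate. By locus order, the first part of the Trbv locus, with Trbv1, Trbv2 and Trbv3, held 49.2% (44.6 to 53.9) in the Foxp3 gate, 30.1% (24.8 to 35.9) in the Tfh gate and 38.8% (36.5 to 41.3) in other T cells.

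**Figure D3:**
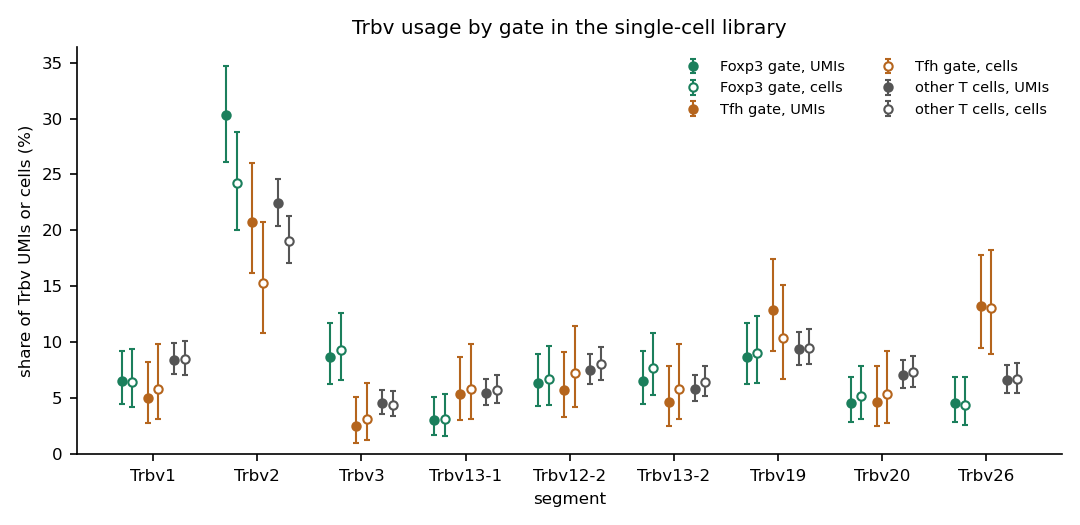
Share of the 9 Trbv segments with at least 5% of the chain in a gate (y axis, %), as UMIs (filled) and as cells with the segment (open), in the Foxp3 gate (green), the Tfh gate (orange) and other T cells (grey). Bars are exact 95% intervals; Trbv2 stands highest in each gate, Trbv3 is higher in the Foxp3 gate and Trbv26 in the Tfh gate, by UMIs and by cells.

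On the alpha chain, Trav7-4 had its highest share in the Foxp3 gate. It had 49 UMIs or 7.24% (5.40 to 9.46) there, 4 UMIs or 1.14% (0.310 to 2.88) in the Tfh gate and 55 UMIs or 2.23% (1.69 to 2.90) in other T cells. The Foxp3 gate was 6.37-fold above the Tfh gate (2.34 to 24.3) and 3.24-fold above other T cells (2.16 to 4.85), and by cells the ratios were 4.84 (1.74 to 18.7) and 3.12 (1.96 to 4.95). With its copies Trav7d-4 and Trav7n-4 summed, the group held 8.12%, 2.84% and 3.70%, and the ratios were 2.86 (1.44 to 6.29) and 2.20 (1.54 to 3.1). The 49 UMIs lay in 38 cells with at most 3 UMIs in 1 cell. Trav7-4 also led the bulk Tfr libraries, with 6.18% and 6.84%. The other leading Trav segments in bulk, Trav4-4-dv10, Trav3-3 and Trav4-3, held 7.83%, 4.43% and 0.591% in the Foxp3 gate.

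Trav3-3 and, by UMIs, Trav8-2 had higher shares in the Tfh gate. Trav3-3 had 30 UMIs or 4.43% (3.01 to 6.27) in the Foxp3 gate, 35 UMIs or 9.94% (7.02 to 13.6) in the Tfh gate and 150 UMIs or 6.10% (5.18 to 7.11) in other T cells, 2.24-fold higher in the Tfh than in the Foxp3 gate (1.34 to 3.78). Trav8-2 had 11 UMIs (1.62%), 33 UMIs or 9.38% (6.54 to 12.9), and 43 UMIs (1.75%) in the same order. Its 33 UMIs in the Tfh gate lay in 8 cells, 16 of them in 2 cells. By cells its share there was 3.25% (1.41 to 6.31), and the ratio to the Foxp3 gate fell from 5.77 (2.84 to 12.7) to 3.14 with an interval that included 1 (0.906 to 12.2). Summed with Trav8d-2 and Trav8n-2, the group held 5.17%, 10.2% and 3.90%, and the Tfh gate was 1.98-fold above the Foxp3 gate (1.21 to 3.24), and 1.19-fold by cells (0.509 to 2.67).

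Trav6-7-dv9 was low in the Tfh gate, with 5 UMIs or 1.42% (0.463 to 3.28) against 38 UMIs or 5.61% (4.0 to 7.62) in the Foxp3 gate and 126 UMIs or 5.12% (4.28 to 6.07) in other T cells. Trav4-4-dv10 had 7.83%, 3.12% and 6.05% of UMIs, but 4.55%, 3.66% and 3.61% by cells, and 1 of the other T cells held 20 of its UMIs. Its 2.51-fold higher share in the Foxp3 than in the Tfh gate by UMIs was thus 1.25-fold by cells (0.551 to 3.07). Trav16n had 3.1%, 5.40% and 3.09% with overlapping intervals. Between the Foxp3 and Tfh gates, 5 of 6 Trav segments with at least 5% in either were past 2-fold, 3 higher in the Foxp3 gate and 2 in the Tfh gate, against 8.93% of all genes. Between the Foxp3 gate and other T cells 1 of 4 was, Trav7-4, against 7.52% of all genes, and between the Tfh gate and other T cells 2 of 5, Trav8-2 and Trav6-7-dv9, against 7.22%. These backgrounds are in CPM and of genes with at least 5 CPM, a level that no Trav segment reached in a gate. They are thus not matched in abundance or measure, and no excess over them can be read from these counts. A segment also needed 5% in only 1 of the 2 gates. It could thus enter through the gate where its share was high, which favours 2-fold gaps. With copies summed, 4 of 8 groups were past 2-fold between the Foxp3 and Tfh gates by UMIs, without the Trav8-2 group, and 3 of 6 by cells, without the Trav4-4-dv10 group as well. Between the Tfh gate and other T cells 2 of 7 groups were by UMIs and 0 of 4 by cells. Symbols ending in dv together held 20.7% (17.7 to 23.9) of the chain in the Foxp3 gate, 10.8% (7.75 to 14.5) in the Tfh gate and 20.4% (18.9 to 22.1) in other T cells.

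**Figure D4:**
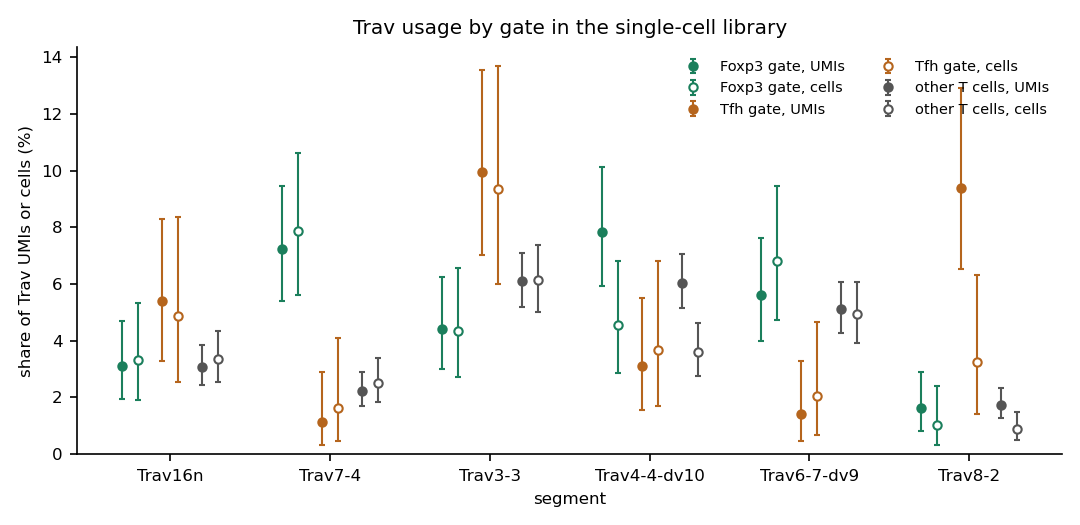
Share of the 6 Trav segments with at least 5% of the chain in a gate (y axis, %), as UMIs (filled) and as cells with the segment (open), in the Foxp3 gate (green), the Tfh gate (orange) and other T cells (grey). Bars are exact 95% intervals; Trav7-4 is highest in the Foxp3 gate by both measures, while Trav8-2 in the Tfh gate falls from 9.38% of UMIs to 3.25% of cells.

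Usage in all was least alike between the Foxp3 and Tfh gates, with a dissimilarity of 41.4% in Trav and 25.3% in Trbv. It was 20.6% and 16.0% between the Foxp3 gate and other T cells and 32.9% and 17.4% between the Tfh gate and other T cells. The Tfh gate had the fewest UMIs, 352 for Trav and 279 for Trbv. The Foxp3 gate had 677 and 459 and other T cells 2461 and 1622. Fewer UMIs raise the dissimilarity by themselves, and the part of depth in this ranking was not tested. In the Foxp3 gate, the Tfh gate and other T cells, the effective number of Trav segments was 43.8, 37.9 and 48.4. For Trbv it was 12.8, 13.7 and 14.6. Counted by cells it was 45.3, 42.5 and 50.7 for Trav and 14.5, 15.2 and 15.5 for Trbv.

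Both chains were seen in 92, 71 and 287 cells of the 3 gates, of which 86, 54 and 246 had 1 segment of each. In the Foxp3 gate 6 of the 8 Trav7-4 cells with a Trbv UMI had Trbv19, and no other pair in that gate was seen in as many cells among the 80 distinct pairs. In the Tfh gate the 3 Trav8-2 cells with a Trbv UMI all had Trbv26. The 29 Trbv26 cells of that gate included 14 with a Trav UMI, spread over 8 partner segments, of which Trav3-3 was seen in 3 cells. The Trbv2 cells of the Foxp3 gate had 17 Trav partners among 19 cells. Whether cells with the same pair share a junction, and so descend from 1 cell, cannot be read from segment counts.

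Bulk and single-cell usage differed more than the libraries or gates did among themselves in Trbv. Over the 23 segments, the dissimilarity between a bulk library and a gate ran from 28.1% to 37.6%, Spearman's rho from 0.61 to 0.81 and Pearson's r from 0.38 to 0.60. Of 20 Trbv segments compared, 5 had shares above both bulk libraries in all 3 gates, which were Trbv2, Trbv4, Trbv12-2, Trbv19 and Trbv24, and 9 had shares below. Trbv2 in the Foxp3 gate was 3.64-fold above the library labelled WT and 5.64-fold above the library labelled KO. Trbv4 had 5 and 0 counts in bulk but 10, 3 and 28 UMIs in the gates. In the other direction Trbv13-2, first in bulk with 11.2% and 11.3%, held 4.66% to 6.54% in the gates, and Trbv29 had 10 UMIs (2.18%), 0 UMIs (at most 1.31%) and 12 UMIs (0.740%) against 3.27% and 4.27% in bulk. Of 48 Trav segments, 9 were above and 10 below both bulk libraries in all 3 gates. The sorted population, the mice, the kit and the way reads were assigned all differ between the data types and cannot be told apart.

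**Figure D5:**
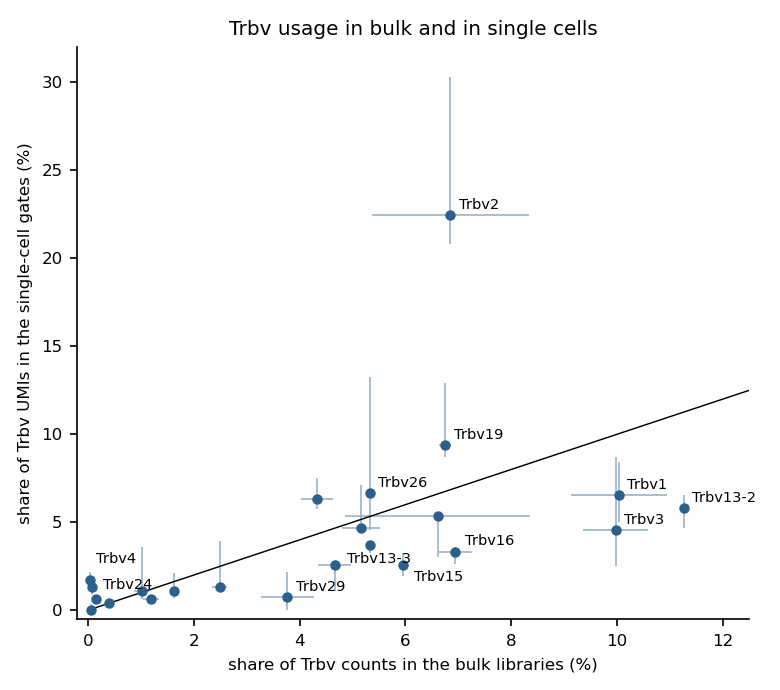
Share of each Trbv segment in the bulk libraries (x axis, %, point at the mean of the 2 libraries, bar from the lower to the higher) and in the 3 single-cell gates (y axis, %, point at the median gate, bar from the lowest to the highest). The line marks equal shares; Trbv2 lies far above it in all 3 gates, and Trbv13-2, Trbv1 and Trbv3 lie below it.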

How the data were processed

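The bulk table as deposited holds whole-number counts per gene for 1 library of each label, with CPM (a count of 0 shown as 0.5 count) and the authors' fold ratio, its log2 and p-values per the file headers. Only the counts were used, and CPM was recomputed from them. The WT column name has a number not found in the title of its sample, the sole WT Tfr RNA sample. The single-cell matrix holds UMI counts, deposited as Cell Ranger wrote them: version 3.1.0 per the file headers and 2.1.0 per the submitters' processing notes, which also name TopHat, Cufflinks and Bowtie2 and the builds mm9 and mm10. Not given in the sources used here are the counter of the bulk reads, its strand setting and its handling of repeated segments.

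Usage is the share of a symbol in the counts or UMIs of all symbols of its chain, with Clopper-Pearson 95% intervals, and ratios have exact conditional binomial intervals. PCR reads are not independent molecules in the bulk libraries, so these cover counting error only. Of 15002 barcodes (106127466 UMIs), 13190 with at least 500 genes and under 10% mitochondrial UMIs were kept. Doublets were removed by scores against simulated doublets (the highest 10%, 1324 cells; Scanpy 1.11.5) and by markers (159 cells). T cells had at least 1 UMI of Cd3d, Cd3e or Cd3g and under 3 of a short list of B cell genes in all (10645 cells), and B-like cells had at least 3 of the latter and none of the former. The B cell list is not reported here. The text names segments with at least 5% of a chain in a library or gate, those at least 2-fold apart in share with at least 1% of the chain, and the segments of invariant receptors. Trbv13-3, Trbv29, Trbv14 and the rarer Trbv segments were named after their values were seen. Members and lists were chosen with earlier results of these data known. On simulated libraries of the bulk depths, intervals of Trav ratios covered the true ratio in 96.8% of 14944 cases over 75 segments. Of 600 simulated 3-fold changes per chain, 95.3% in Trav but only 79.8% in Trbv were past 2-fold. The count of Trbv segments past 2-fold in bulk can thus miss changes of that size. Neither PCR error nor spread between mice was tested. Alternatives included other minimum shares, CPM with and without edgeR 4.0.16 TMM factors, summed copies, cells in place of UMIs and other gates. RefSeq (GRCm38.p6) gave names, order and spans only.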

Additional observations from a re-analysis of the deposited data

How the results depend on the processing

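With 1 library per group no replicate could be left out. No paired analysis was possible because the groups compared have 1 library each, and the labels number replicates only in samples not analysed here. The count of Trav segments 2-fold apart between the bulk libraries, 6, was 11 with a minimum share of 0.5%, 1 with 2%, 20 with none, 16 at 1.5-fold, 3 with copies summed and 1 by subfamily. By CPM in place of shares it was 12, and 17 with TMM factors, all higher in the library labelled KO. The Trbv count, 0, was 2 with no minimum share, 2 at 1.5-fold, 5 by CPM and 8 with TMM factors; by CPM and with TMM factors all were again higher in the library labelled KO.

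The effective number of Trav segments in the libraries labelled KO and WT was 31.2 and 30.9 with copies summed, 37.4 and 36.8 by the inverse Simpson index, and 47.0 and 47.2 per RefSeq span, an alternative chosen after seeing the data. For Trbv it was 14.2 and 14.3 by the inverse Simpson index and 15.7 and 15.6 per span. The Trav dissimilarity was 13.5% with copies summed, 15.0% over segments of at least 1% and 15.9% per span, and the Trbv dissimilarity 7.44% over segments of at least 1% and 7.59% per span.

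In single cells, counting cells in place of UMIs gave Trav8-2 3.25% in the Tfh gate and 0.901% in other T cells, and Trbv2 24.2%, 15.3% and 19.1% in the Foxp3 gate, the Tfh gate and other T cells. Thinning to 3000 UMIs, without 150, 17 and 595 shallower cells, gave Trav detection in 9.68%, 13.4% and 12.0% of the remaining cells and Trbv detection in 7.77%, 12.0% and 9.38%. With copies summed, also chosen after seeing the data, the share of the Trav7-4 group was 3.70% in other T cells, that of the Trav8-2 group 5.17% in the Foxp3 gate and 3.90% in other T cells. Trav6-7-dv9 in the Foxp3 gate was 3.92% with at least 2 Foxp3 UMIs. The cause of these shifts was not tested beyond what each setting changes by construction.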

Other observations

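Cells of the Tfh gate with a Sostdc1 UMI numbered 130 and those without 655, and they gave 35 and 187 detections of a Trbv segment. Trbv26, the segment with a high share in that gate, made up 2 of the 35, 5.71% (0.700 to 19.2), and 27 of the 187, 14.4% (9.74 to 20.3). Trbv2 made up 3 (8.57%, 1.80 to 23.1) and 31 (16.6%, 11.6 to 22.7), and Trbv19 5 (14.3%, 4.81 to 30.3) and 18 (9.63%, 5.81 to 14.8). The intervals overlapped for all 3 segments. No ratio between the 2 sets of cells was taken, so whether their usage differs was not tested.

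Joining and diversity segments were seen in the bulk libraries only: 54 Traj, 14 Trbj and 2 Trbd symbols had counts there, and the single-cell gates had 0 UMIs of any of them. Trbd symbols had 46 counts in the library labelled KO, against 6 for WT.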
